A study of Homo sapiens with 12 samples.

Results

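Protein phosphatase 2A (PP2A) and 2 of its inhibitor proteins were followed across the transcriptome of K562 cells treated with nilotinib and hemin. The members were 10 of the 58735 genes counted. They are the catalytic subunits PPP2CA and PPP2CB, the scaffold subunits PPP2R1A and PPP2R1B, the B55 regulatory subunits PPP2R2A, PPP2R2B, PPP2R2C and PPP2R2D, and the inhibitors SET and CIP2A. They were chosen by gene name, and PPP2R2C was picked because its RNA rose steeply with nilotinib, so its values are given as a description without a test. Of the 10 genes, 9 had enough reads for a test and PPP2R2B did not. In GRCh38 the members lie on chromosomes 3 (CIP2A, chr3:108549869-108589644), 4 (PPP2R2C, chr4:6320578-6563600), 5 (PPP2CA, chr5:134194334-134226142, and PPP2R2B, chr5:146581146-147084784), 8 (PPP2CB and PPP2R2A), 9 (SET, chr9:128683424-128696400), 10 (PPP2R2D, chr10:131900644-131959834), 11 (PPP2R1B, chr11:111726908-111766427) and 19 (PPP2R1A, chr19:52190039-52229533).

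K562 is a human erythroleukemia cell line driven by the fusion kinase BCR-ABL1, and hemin turns it toward the erythroid lineage. RNA was sequenced from 12 libraries, 3 biological replicates in each of 4 groups. Mock DMSO cells received vehicle only, mock nilotinib cells received 0.1 μM of nilotinib, an inhibitor of BCR-ABL1 and other tyrosine kinases, hemin DMSO cells received 50 μM hemin for 24 h after vehicle, and hemin nilotinib cells received both agents. By the study's methods, nilotinib or vehicle was given for 24 h before hemin. The mock cells were collected when hemin would have been added, so hemin and time in culture cannot be told apart between mock and hemin groups. Where the effect of nilotinib differs between mock and hemin cells, hemin and the time since nilotinib was added cannot be told apart either. All groups are 1 cell line, cultured in vitro.

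PP2A is a serine/threonine phosphatase built from 1 catalytic, 1 scaffold and 1 regulatory subunit. The regulatory B subunit directs the enzyme to its substrates, and the B55, B56, B'' and striatin families compete for the same core. In BCR-ABL1 leukemia, PP2A is known as a tumor suppressor whose activity is held down by SET, and CIP2A is a second inhibitor that protects MYC from dephosphorylation.

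The libraries held 33457078 to 50506990 counted reads, and 3 reads corresponded to 0.0540 to 0.0957 CPM (reads relative to a library of 1e+06 reads, on edgeR's TMM scale, which corrects for library composition). All 7 erythroid markers examined (GATA1, TAL1, KLF1, HBG1, HBG2, HBE1 and TFRC) were detected, and their summed level was 1254 to 2079 CPM in mock DMSO, 5930 to 7119 in mock nilotinib, 945 to 1111 in hemin DMSO and 3770 to 6722 in hemin nilotinib. The hemin nilotinib libraries were split in TFRC, at 2845, 519 and 429 CPM in replicates 1, 2 and 3, beside 3006, 2809 and 2503 in mock nilotinib. By their counts, replicate pairs within groups gave a chi-squared statistic per degree of freedom of 12.5 to 223.7. The largest was that of hemin nilotinib replicates 1 and 3. Of the 7 erythroid markers, nilotinib raised 5 in mock cells and 6 in hemin cells, where 20.7% and 32.4% of all genes were higher at an adjusted p under 0.05. Hemin raised 2 and lowered 3 in vehicle-treated cells, where 25.7% and 27.8% of all genes were higher and lower. From mock DMSO to hemin DMSO, mean CPM went from 284.5 to 24.0 for KLF1, 243.8 to 88.7 for TAL1, 296.4 to 158.1 for GATA1 and 638.5 to 355.2 for TFRC. It went from 195 to 349.3 for HBG1, 17.2 to 33.4 for HBG2 and 1.20 to 1.61 for HBE1. The 11 markers of other cell types summed to 81.7 to 100.2 CPM in mock DMSO, 53.9 to 69.9 in mock nilotinib, 98.7 to 135 in hemin DMSO and 46.6 to 56.1 in hemin nilotinib. Most of that sum was EPCAM, at 63.1 CPM in mock DMSO and 32.6 in hemin nilotinib, while MS4A1, SNAP25 and CD3E were near 0. Of the 8 of these that could be tested, nilotinib raised 2 and lowered 5 in mock cells and raised 0 and lowered 6 in hemin cells, where 21.8% and 31.8% of all genes were lower, and hemin raised 4 and lowered 0 in vehicle-treated cells. The part of either marker list in the results on PP2A was not tested.

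Apart from PPP2R2C, 8 members could be tested. Nilotinib changed 4 of the 8 in mock cells, with CIP2A higher and PPP2CA, PPP2R2A and SET lower, while 42.5% of all 20821 genes tested passed the same threshold (adjusted p under 0.05), 20.7% higher and 21.8% lower. In hemin cells nilotinib changed 6 of the 8, with PPP2R1B and CIP2A higher and PPP2CA, PPP2CB, PPP2R2A and SET lower, where 64.2% of all genes passed, 32.4% higher and 31.8% lower. Hemin given without nilotinib changed 4 of the 8, with both catalytic subunits higher and PPP2R1B and CIP2A lower, against 53.6% of all genes, 25.7% higher and 27.8% lower. In nilotinib-treated cells hemin changed 0 of the 8 by edgeR's quasi-likelihood test, against 5.8% of all genes, 3.52% higher and 2.28% lower. The effect of nilotinib differed between hemin and mock cells for 3 of the 8, CIP2A in the upward direction and PPP2CA and PPP2CB in the downward one, where 30.1% of all genes passed, 17.1% upward and 13% downward. At an unadjusted p under 0.05, 4 of the 8 passed for hemin in nilotinib-treated cells, and DESeq2 and limma also called 0. The share of members changed was therefore near the share of all genes in each comparison. The median log2 fold change of the 8 was -0.12 for nilotinib in mock cells, -0.27 for nilotinib in hemin cells, -0.18 for hemin in vehicle-treated cells and 0.24 for hemin in nilotinib-treated cells, beside medians over all genes of 0.00, 0.02, -0.05 and 0.03. These comparisons share libraries pairwise, since each group serves in more than 1 of them, so they are set side by side and not counted as separate evidence.

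**Figure D1:**
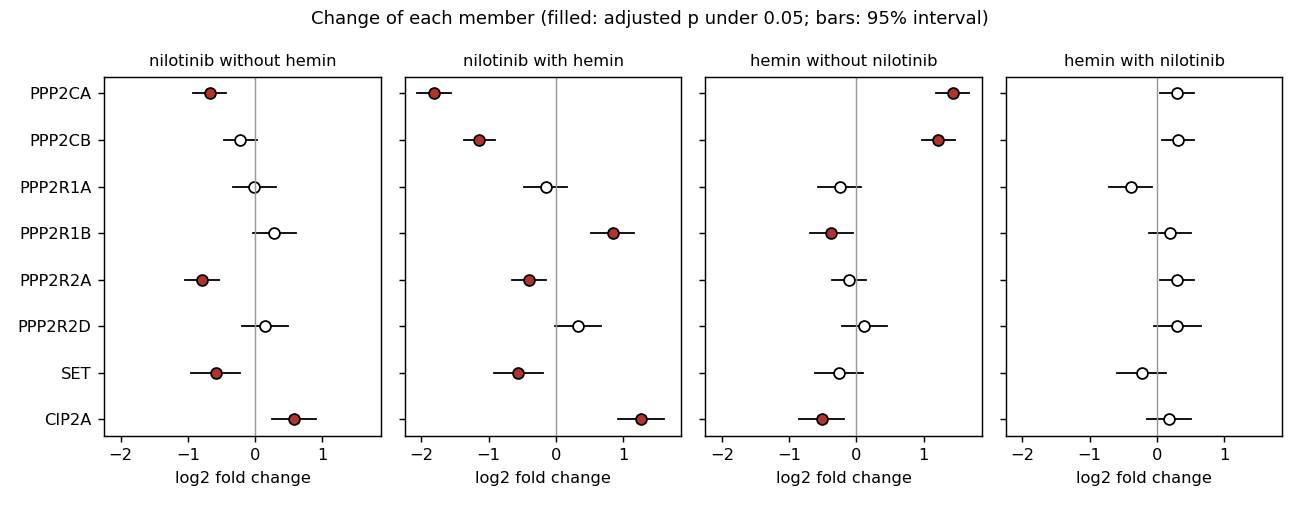
Log2 fold change of the 8 tested members other than PPP2R2C (rows) in 4 comparisons (panels), with 95% intervals from edgeR and filled points where the adjusted p was under 0.05. PPP2CA and PPP2CB lie at -1.81 and -1.14 for nilotinib with hemin and at 1.44 and 1.22 for hemin without nilotinib, while in the panel for hemin with nilotinib no point is filled.

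PPP2R2C encodes the gamma isoform of the B55 regulatory subunit and is known mainly from the brain. It was almost silent without nilotinib and well expressed with it. Mock DMSO libraries held 3, 2 and 2 reads of PPP2R2C, and hemin DMSO libraries held 3, 4 and 1. Mock nilotinib libraries held 1564, 1763 and 1409 reads, and hemin nilotinib libraries held 2818, 3154 and 2285. The lowest nilotinib library thus held 1409 reads and the highest DMSO library 4, and the groups lay far apart whether or not hemin was present.

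On the CPM scale PPP2R2C measured 39.7, 51.4 and 40.6 CPM in mock nilotinib (43.9 ± 6.53, SD, n = 3) and 81.0, 86.6 and 53.4 in hemin nilotinib (73.7 ± 17.8, SD, n = 3). The DMSO groups measured 0.0467 ± 0.00781 CPM without hemin and 0.0816 ± 0.0519 CPM with it (SD, n = 3 each), at or near the level of 3 reads. From the summed reads, 7 in mock DMSO and 4736 in mock nilotinib, the ratio after scaling was 933, with a 95% counting interval of 453 to 2320. In hemin cells, 8 and 8257 reads gave a ratio of 936, with an interval of 475 to 2170. The width of these intervals comes from the few reads in the DMSO groups, and they cover counting error only. Among nilotinib-treated cells PPP2R2C was 1.66 times higher with hemin than without (counting interval 1.60 to 1.72), and the lowest hemin nilotinib library, at 53.4 CPM, lay just above the highest mock nilotinib library, at 51.4. That interval also covers counting error only and leaves out the spread between libraries. When a replicate was left out, the log2 ratio, 0.73 with all libraries, ranged from 0.563 to 0.933. Among DMSO-treated cells the ratio of hemin to mock was 1.65 (interval 0.524 to 5.35), a difference that was not detectable at this depth. In bulk RNA, more RNA per cell and a larger share of cells that hold the RNA cannot be told apart. PPP2R2C shares no exon with another gene in GENCODE 29. After rounding, 0.0% of the 75-base stretches of its transcripts occur in transcripts of other genes, and ASAH2 is the gene listed as sharing any.

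PPP2R2C is read from the minus strand of chromosome 4 and has 9 annotated transcripts, 5 of them protein-coding and each with its own start. Counts per gene do not show which start was in use. RefSeq (GRCh38.p14) gives 5 starts for the gene. They can lie apart from the GENCODE 29 starts, with the outermost at 6563799 against 6563600 and an internal one at 6472614 against 6472446. The 250 bases before the start are shown for 3 of the 5 RefSeq starts. These 3 were chosen because their content of CG dinucleotides, the sites of DNA methylation, spans the range seen in human promoters. The first window (chr4:6563800-6564049, minus strand) precedes the outermost start, the third (chr4:6472615-6472864) an internal start, and the fifth (chr4:6381869-6382118) the innermost one. Each is written 5′ to 3′ on the gene's strand, with CG dinucleotides in capitals.

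PPP2R2C window 1: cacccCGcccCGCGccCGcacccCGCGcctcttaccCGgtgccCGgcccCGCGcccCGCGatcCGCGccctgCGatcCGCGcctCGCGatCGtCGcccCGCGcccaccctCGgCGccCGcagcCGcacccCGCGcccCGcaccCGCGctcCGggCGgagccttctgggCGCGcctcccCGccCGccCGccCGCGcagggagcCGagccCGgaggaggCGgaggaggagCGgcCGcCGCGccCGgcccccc

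PPP2R2C window 3: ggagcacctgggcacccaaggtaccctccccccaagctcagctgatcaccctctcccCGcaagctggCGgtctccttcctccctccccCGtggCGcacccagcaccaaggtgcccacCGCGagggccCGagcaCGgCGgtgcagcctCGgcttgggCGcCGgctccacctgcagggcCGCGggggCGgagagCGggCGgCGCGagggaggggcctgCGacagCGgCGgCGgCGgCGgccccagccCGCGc

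PPP2R2C window 5: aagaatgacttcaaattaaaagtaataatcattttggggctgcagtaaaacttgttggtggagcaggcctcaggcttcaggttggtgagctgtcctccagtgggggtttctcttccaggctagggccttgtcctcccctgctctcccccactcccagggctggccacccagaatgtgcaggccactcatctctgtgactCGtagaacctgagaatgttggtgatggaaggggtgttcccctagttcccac

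The first window holds 49 CG dinucleotides in 250 bases, more than 99.8% of the 35116 RefSeq windows of that length, and is 86.0% G or C. The third holds 27 and the fifth 1, against a median of 11 over all windows. Windows 2 and 4, which are not shown, hold 11 and 3.

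**Figure D2:**
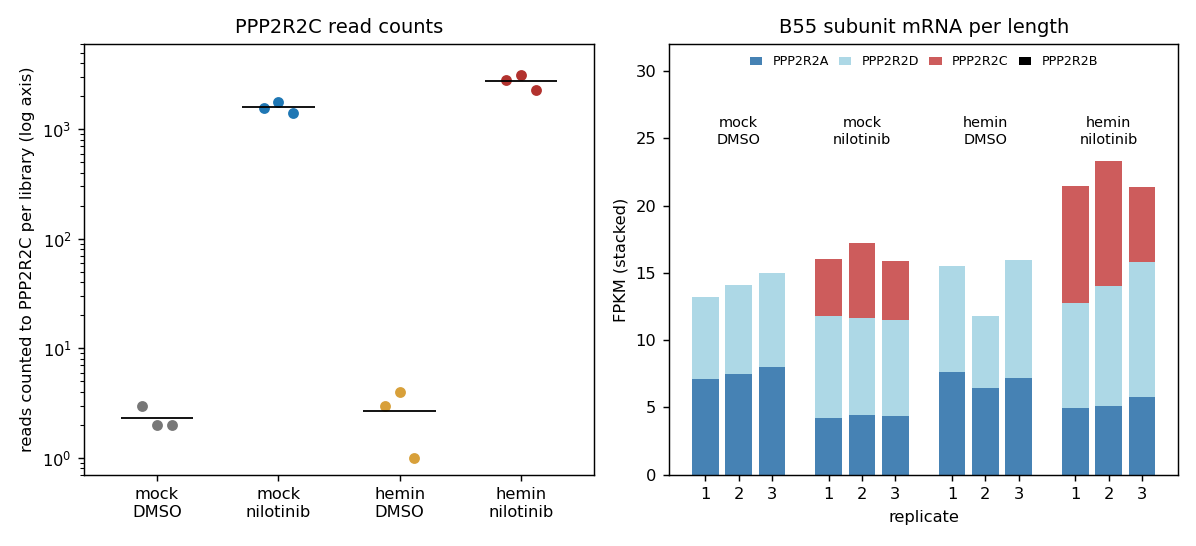
Left, reads counted to PPP2R2C in each library (log axis), with the group mean as a line. Right, FPKM of the B55 subunits stacked for each library. DMSO libraries hold 1 to 4 reads of PPP2R2C and nilotinib libraries 1409 to 3154, and PPP2R2C appears as a large segment of the B55 stack in the 6 nilotinib libraries and cannot be seen in the 6 DMSO libraries.

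The other B55 subunits behaved in different ways. PPP2R2A, the widely expressed alpha isoform, which opposes CDK1 at mitotic exit, measured 56.9, 59.1 and 63.5 CPM in mock DMSO and 33.8, 35.0 and 34.7 CPM in mock nilotinib. In hemin DMSO it measured 59.5, 50.0 and 57.0 CPM and in hemin nilotinib 39.4, 40.5 and 46.9. All 6 nilotinib libraries lay below all 6 DMSO libraries. The log2 fold change with nilotinib was -0.79 ± 0.120 (SE) in mock cells (edgeR adjusted p = 6.14e-05) and -0.39 ± 0.120 in hemin cells (edgeR adjusted p = 0.00908). The second call was lost when every gene with 1 or more counts was kept (edgeR adjusted p = 0.0764) or when the 6 libraries of that comparison were fitted alone (edgeR adjusted p = 0.0668). Hemin did not pass the test for PPP2R2A in either background (log2 fold change -0.11 with vehicle and 0.29 with nilotinib).

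PPP2R2D, the delta isoform, measured 48.5, 51.8 and 55.1 CPM in mock DMSO, 59.9, 56.5 and 55.8 in mock nilotinib, 60.1, 40.6 and 68.2 in hemin DMSO and 61.7, 70.0 and 80.7 in hemin nilotinib. The hemin DMSO libraries spread over most of the range of the other groups. With nilotinib its log2 fold change was 0.15 in mock cells (95% interval -0.20 to 0.49) and 0.33 in hemin cells (-0.01 to 0.67), neither past the threshold. Without hemin DMSO replicate 3 the second value was 0.487 (edgeR adjusted p = 0.0227), and without hemin nilotinib replicate 1 it was 0.433 (edgeR adjusted p = 0.0295). PPP2R2B, the beta isoform of neurons, had 0 reads in 9 of the 12 libraries, 7 and 1 in mock nilotinib replicates 2 and 3, and 1 in hemin DMSO replicate 2. A count of 0 allows a level of up to 0.0540 to 0.0957 CPM, depending on the library, so PPP2R2B was at or under detection in all but 1 library.

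Levels of different genes were compared per length, as FPKM. In mock DMSO, PPP2R2A (7.52 ± 0.449 FPKM, SD, n = 3) stood above PPP2R2D (6.60 ± 0.449) without overlap of the libraries, and PPP2R2C stood at 0.00501. In mock nilotinib the order was PPP2R2D (7.32 ± 0.245), then PPP2R2C (4.72 ± 0.721) and PPP2R2A (4.34 ± 0.101), and the last pair overlapped. In hemin DMSO, PPP2R2D (7.30 ± 1.77) and PPP2R2A (7.11 ± 0.600) overlapped, and PPP2R2C stood at 0.00899. In hemin nilotinib, PPP2R2D (8.93 ± 1.10), PPP2R2C (7.86 ± 1.99) and PPP2R2A (5.26 ± 0.427) followed each other with overlap between neighbours. PPP2R2C therefore stood beside the 2 constitutive isoforms in nilotinib-treated cells and far under them in DMSO-treated cells.

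As a share of the summed B55 FPKM, PPP2R2C made up 0.0358% in mock DMSO, 28.7% in mock nilotinib (range 26.4% to 32.2%), 0.0671% in hemin DMSO and 35.5% in hemin nilotinib (26.2% to 40.4%). The share of PPP2R2A was 53.2% in mock DMSO and 26.5% in mock nilotinib, and it was 49.8% in hemin DMSO and 23.9% in hemin nilotinib. PPP2R2D held 46.7%, 44.7%, 50.1% and 40.6% in the same order. The B55 sum was 14.1 FPKM in mock DMSO and 16.4 in mock nilotinib, and 14.4 in hemin DMSO and 22.0 in hemin nilotinib. These shares contain the value by which PPP2R2C was picked and are a description of RNA, not of protein or of assembled enzyme.

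The catalytic subunits moved with hemin. PPP2CA, the main catalytic isoform, measured 113, 125 and 125 CPM in mock DMSO, 78.0, 76.9 and 72.9 in mock nilotinib, 309, 358 and 317 in hemin DMSO and 94.4, 99.6 and 86.4 in hemin nilotinib. The hemin DMSO libraries stood far above all others, and hemin nilotinib stood below mock DMSO. Hemin raised PPP2CA 2.71-fold in vehicle-treated cells (log2 fold change 1.44 ± 0.117, edgeR adjusted p = 9.88e-08). In nilotinib-treated cells the log2 fold change with hemin was 0.30 ± 0.116 and did not pass (edgeR adjusted p = 0.141). Nilotinib lowered PPP2CA by 0.67 ± 0.116 on the log2 scale in mock cells (edgeR adjusted p = 0.000202) and by 1.81 ± 0.119 in hemin cells (edgeR adjusted p = 3.49e-09). The difference between these effects was -1.14 ± 0.164 (edgeR adjusted p = 0.000133). Overlapping annotated transcripts take 9.22% of the exon length of PPP2CA on the same strand, and reads there cannot be assigned with certainty.

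PPP2CB, the second catalytic isoform, nearly identical to PPP2CA in protein sequence, was also highest in hemin DMSO. It measured 56.2, 61.8 and 63.2 CPM in mock DMSO, 49.0, 52.8 and 53.6 in mock nilotinib, 150, 141 and 132 in hemin DMSO and 59.9, 66.8 and 65.7 in hemin nilotinib. Hemin raised it 2.33-fold in vehicle-treated cells (log2 fold change 1.22 ± 0.113, edgeR adjusted p = 3.48e-07), and the value in nilotinib-treated cells was 0.31 ± 0.112 (edgeR adjusted p = 0.119). Nilotinib lowered it by 1.14 ± 0.113 on the log2 scale in hemin cells (edgeR adjusted p = 3.18e-07). In mock cells the log2 fold change was -0.22 ± 0.112, which did not pass (edgeR adjusted p = 0.123). The 2 effects of nilotinib differed by -0.91 ± 0.158 (edgeR adjusted p = 0.000587). In FPKM the 2 catalytic subunits summed to 34.4 in mock DMSO, 24.6 in mock nilotinib, 89.8 in hemin DMSO and 30.1 in hemin nilotinib. PPP2CA made up 61.5%, 53.9%, 65.0% and 53.7% of these sums.

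The scaffold subunits bring the catalytic and regulatory subunits together. PPP2R1A, the main scaffold, measured 205, 229 and 218 CPM in mock DMSO, 188, 233 and 226 in mock nilotinib, 162, 228 and 159 in hemin DMSO and 182, 166 and 147 in hemin nilotinib. It passed the test in none of the 5 contrasts. The effect of nilotinib was -0.01 in mock cells (95% interval -0.33 to 0.31) and -0.15 in hemin cells (-0.47 to 0.17). Hemin DMSO replicate 2 stood apart, and without it the effect of hemin in vehicle-treated cells was -0.433 (edgeR adjusted p = 0.0154) in place of -0.25 (edgeR adjusted p = 0.176).

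PPP2R1B, the minor scaffold isoform, measured 47.0, 50.5 and 50.6 CPM in mock DMSO, 60.6, 67.7 and 51.5 in mock nilotinib, 37.3, 39.4 and 37.7 in hemin DMSO and 84.5, 66.7 and 54.4 in hemin nilotinib. All 3 hemin DMSO libraries were the lowest of the 12. Nilotinib raised PPP2R1B 1.80-fold in hemin cells (log2 fold change 0.85 ± 0.152, edgeR adjusted p = 0.000145), and the value in mock cells was 0.28 ± 0.150 (edgeR adjusted p = 0.147). The difference between these effects was 0.57 ± 0.213 (edgeR adjusted p = 0.055), which passed under 3 other settings and when mock nilotinib replicate 2 (0.696, edgeR adjusted p = 0.0482) or hemin nilotinib replicate 3 (0.75, edgeR adjusted p = 0.00818) was left out. Hemin without nilotinib lowered PPP2R1B by 0.37 ± 0.151 on the log2 scale (edgeR adjusted p = 0.0471). That call was lost under 5 alternatives and when any of mock DMSO replicates 2 and 3 or the 3 hemin DMSO replicates was left out, with values of -0.399 to -0.347. In FPKM the share of PPP2R1B in the scaffold sum was 20.1% in mock DMSO, 23.6% in mock nilotinib, 19.1% in hemin DMSO and 31.3% in hemin nilotinib.

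The inhibitors moved in opposite directions with nilotinib. SET, a nuclear protein that binds and inhibits the catalytic subunit, was the most abundant member per length, at 162 FPKM in mock DMSO. It measured 628, 722 and 786 CPM in mock DMSO, 477, 485 and 459 in mock nilotinib, 534, 695 and 557 in hemin DMSO and 505, 402 and 308 in hemin nilotinib. Nilotinib lowered it by 0.59 ± 0.171 on the log2 scale in mock cells (edgeR adjusted p = 0.0109) and by 0.56 ± 0.171 in hemin cells (edgeR adjusted p = 0.00948). The latter was -0.378 (edgeR adjusted p = 0.0593) without hemin nilotinib replicate 3, the lowest library. The 2 effects differed by 0.03 (95% interval -0.48 to 0.54). Near-identical copies of SET (SETP14, SETSIP and SETP21) share 5.1% of the 75-base stretches of its transcripts, so a small part of its reads could be split among them.

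CIP2A measured 33.0, 25.0 and 29.7 CPM in mock DMSO, 49.3, 42.8 and 38.9 in mock nilotinib, 21.4, 20.0 and 20.1 in hemin DMSO and 59.7, 48.4 and 40.2 in hemin nilotinib. Every nilotinib library lay above every DMSO library. Nilotinib raised CIP2A 1.49-fold in mock cells (log2 fold change 0.58 ± 0.156, edgeR adjusted p = 0.00691) and 2.41-fold in hemin cells (1.27 ± 0.159, edgeR adjusted p = 3.85e-06). The call in mock cells was lost without mock DMSO replicate 2 (0.475, edgeR adjusted p = 0.0518). Hemin lowered it by 0.51 ± 0.158 on the log2 scale in vehicle-treated cells (edgeR adjusted p = 0.0117) and gave 0.18 ± 0.156 in nilotinib-treated cells (edgeR adjusted p = 0.548). The difference between the nilotinib effects was 0.69 ± 0.222 (edgeR adjusted p = 0.0271). It did not pass with limma on the FPKM (0.54 and 0.617) or without mock DMSO replicate 1 (0.676), mock nilotinib replicates 2 (0.711) or 3 (0.647), or hemin DMSO replicate 3 (0.662).

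**Figure D3:**
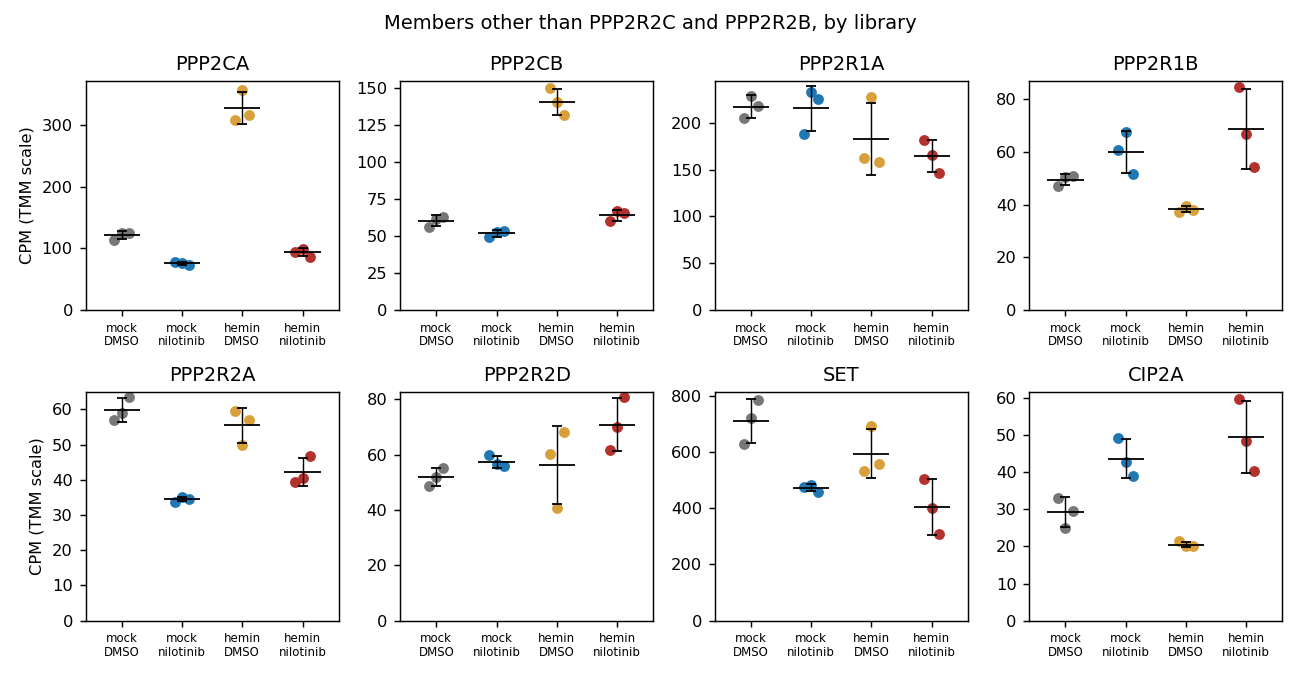
CPM of 8 members in each library, by group, with mean and SD (n = 3), on axes that start at 0. PPP2CA and PPP2CB peak in hemin DMSO, at 328 and 141 CPM on average, PPP2R2A is lower in both nilotinib groups, and CIP2A is higher in both.

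The other genes of the PP2A system examined numbered 36, all tested. Of these, nilotinib changed 16 in mock cells (8 higher and 8 lower) and 19 in hemin cells (7 higher and 12 lower), beside 42.5% and 64.2% of all genes. Hemin changed 18 in vehicle-treated cells (10 higher and 8 lower), beside 53.6% of all genes. In nilotinib-treated cells hemin changed 0 by edgeR's quasi-likelihood test, with 10 at an unadjusted p under 0.05 and 1 (PPP2R3B) called by DESeq2, beside 5.8% of all genes by edgeR. The effect of nilotinib differed between hemin and mock cells for 7 of the 36 (4 upward and 3 downward), beside 30.1% of all genes. For hemin in nilotinib-treated cells the replicate number was also used as a block, because same-numbered libraries of mock nilotinib and hemin nilotinib deviated together. That fit held all 12 libraries, and its replicate terms were shared by the 4 groups, the DMSO groups included. In it hemin changed 2 of the 36, PPP2R3B lower (-0.45, edgeR adjusted p = 0.049) and MOB4 higher (0.54, edgeR adjusted p = 0.0432). The median log2 fold changes of the 36 were -0.04, -0.10, 0.12 and 0.02 in the 4 comparisons, beside 0, 0.02, -0.05 and 0.03 for all genes.

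Among the 5 B56 subunits, which guide PP2A to substrates such as those of the kinetochore and of WNT signaling, nilotinib lowered 1 in mock cells and 2 in hemin cells. Of all genes, 21.8% and 31.8% were lower in these comparisons. PPP2R5C fell from 533 ± 33.9 to 333 ± 75.5 CPM in mock cells (log2 fold change -0.68, edgeR adjusted p = 0.00945), a call lost without mock nilotinib replicate 1 (-0.527, edgeR adjusted p = 0.0526). In hemin cells it stood at 375 ± 111 CPM with vehicle and 394 ± 27.9 with nilotinib. The hemin DMSO libraries were spread widely, at 291, 502 and 333 CPM. PPP2R5A and PPP2R5D were lower with nilotinib in hemin cells, at log2 fold changes of -0.40 (edgeR adjusted p = 0.00894) and -0.39 (edgeR adjusted p = 0.0147). The call of PPP2R5D was lost without hemin DMSO replicate 2 (-0.289) or hemin nilotinib replicate 3 (-0.339), and both were lost with the 6 libraries alone and with all genes of at least 1 count. Of the 3 B'' subunits, which bind calcium, nilotinib raised PPP2R3B in mock cells (log2 fold change 0.67, edgeR adjusted p = 0.000589) and in hemin cells (0.96, edgeR adjusted p = 1.08e-05). PPP2R3A was higher in mock cells (0.86, edgeR adjusted p = 0.0213, at 0.997 and 1.82 CPM), and its value in hemin cells was -0.11 (edgeR adjusted p = 0.73). That call was lost when any of mock DMSO replicates 1 (0.862), 2 (0.81) and 3 (0.837) or mock nilotinib replicates 2 (0.726) and 3 (0.763) was left out.

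The striatins form with their partners the STRIPAK complex, in which PP2A restrains kinases of the GCKIII group. Of 13 of its genes, nilotinib raised 4 and lowered 4 in mock cells and raised 4 and lowered 4 in hemin cells. Beside these, 20.7% of all genes were higher and 21.8% lower in mock cells, and 32.4% and 31.8% in hemin cells. CTTNBP2NL, a striatin-binding protein, fell from 5.71 ± 0.135 to 1.25 ± 0.242 CPM in mock cells and from 9.26 ± 2.23 to 1.24 ± 0.232 CPM in hemin cells (log2 fold changes -2.19 and -2.89, edgeR adjusted p = 3.56e-06 and 8.15e-08). STK26, a GCKIII kinase, fell by 1.16 and 1.33 on the log2 scale (edgeR adjusted p = 2.15e-06 and 2.16e-07), whereas STK25, a kinase of the same group, was higher by 0.46 and 1.17 (edgeR adjusted p = 0.0132 and 2.47e-06). In mock cells STK25 lost its call without mock DMSO replicates 1 (0.393) or 2 (0.434) or mock nilotinib replicate 3 (0.37). MOB4 fell by 1.41 in hemin cells (edgeR adjusted p = 1.52e-05), and PDCD10 was higher there by 0.84 (edgeR adjusted p = 2.05e-05). For these last 2 genes the values in mock cells were -0.28 and 0.08, and neither passed. MOB4 stood at 8.7 CPM in mock DMSO, 27.7 in hemin DMSO and 10.5 in hemin nilotinib. PDCD10 stood at 49.5, 34.7 and 62.0 CPM in the same order. Hemin without nilotinib gave log2 fold changes of 1.665 for MOB4 and -0.511 for PDCD10. FGFR1OP2 was higher by 0.47 in mock cells and 0.77 in hemin cells (edgeR adjusted p = 0.00336 and 2.84e-05). STRIP2, named here after its values were seen, measured 129, 113 and 117 CPM in mock DMSO, 85.6, 67.5 and 65.8 in mock nilotinib, 55.6, 65.2 and 51.2 in hemin DMSO and 98.2, 73.8 and 71.3 in hemin nilotinib. Nilotinib lowered it by 0.71 on the log2 scale in mock cells (edgeR adjusted p = 0.00118) and raised it by 0.50 in hemin cells (edgeR adjusted p = 0.00847), and the 2 effects differed by 1.21 (edgeR adjusted p = 0.000658).

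Of 15 assembly factors and regulators, nilotinib raised 2 and lowered 3 in mock cells and raised 2 and lowered 6 in hemin cells. The shares of all genes were 20.7% higher and 21.8% lower in mock cells, and 32.4% and 31.8% in hemin cells. BOD1, an inhibitor of B56-bound PP2A at the kinetochore, fell from 19.2 ± 0.103 to 5.95 ± 1.43 CPM in mock cells and from 28.0 ± 1.56 to 5.52 ± 1.81 CPM in hemin cells (log2 fold changes -1.69 and -2.34, edgeR adjusted p = 1.09e-05 and 1.57e-07). TIPRL, which helps the turnover of the catalytic subunit, fell by 0.86 on the log2 scale in mock cells (edgeR adjusted p = 6.74e-05) and from 79.3 to 39.7 CPM in hemin cells (edgeR adjusted p = 6.59e-06). ARPP19, which inhibits B55-bound PP2A in mitosis once phosphorylated, fell by 0.48 and 0.57 (edgeR adjusted p = 0.00454 and 0.000705). FAM122B was higher by 0.75 and 1.20 (edgeR adjusted p = 0.00635 and 8.43e-05), and its paralog FAM122A, an inhibitor of B55-bound PP2A, by 0.45 in hemin cells (edgeR adjusted p = 0.0249). The call of FAM122A was lost without hemin DMSO replicates 2 (0.35) or 3 (0.443) or hemin nilotinib replicate 1 (0.333). PPME1, the methylesterase that acts on the catalytic subunit, was higher by 0.36 in mock cells (edgeR adjusted p = 0.0325), a call lost when any mock DMSO replicate (0.319 to 0.355) or mock nilotinib replicate 2 or 3 (0.306 and 0.292) was left out.

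**Figure D4:**
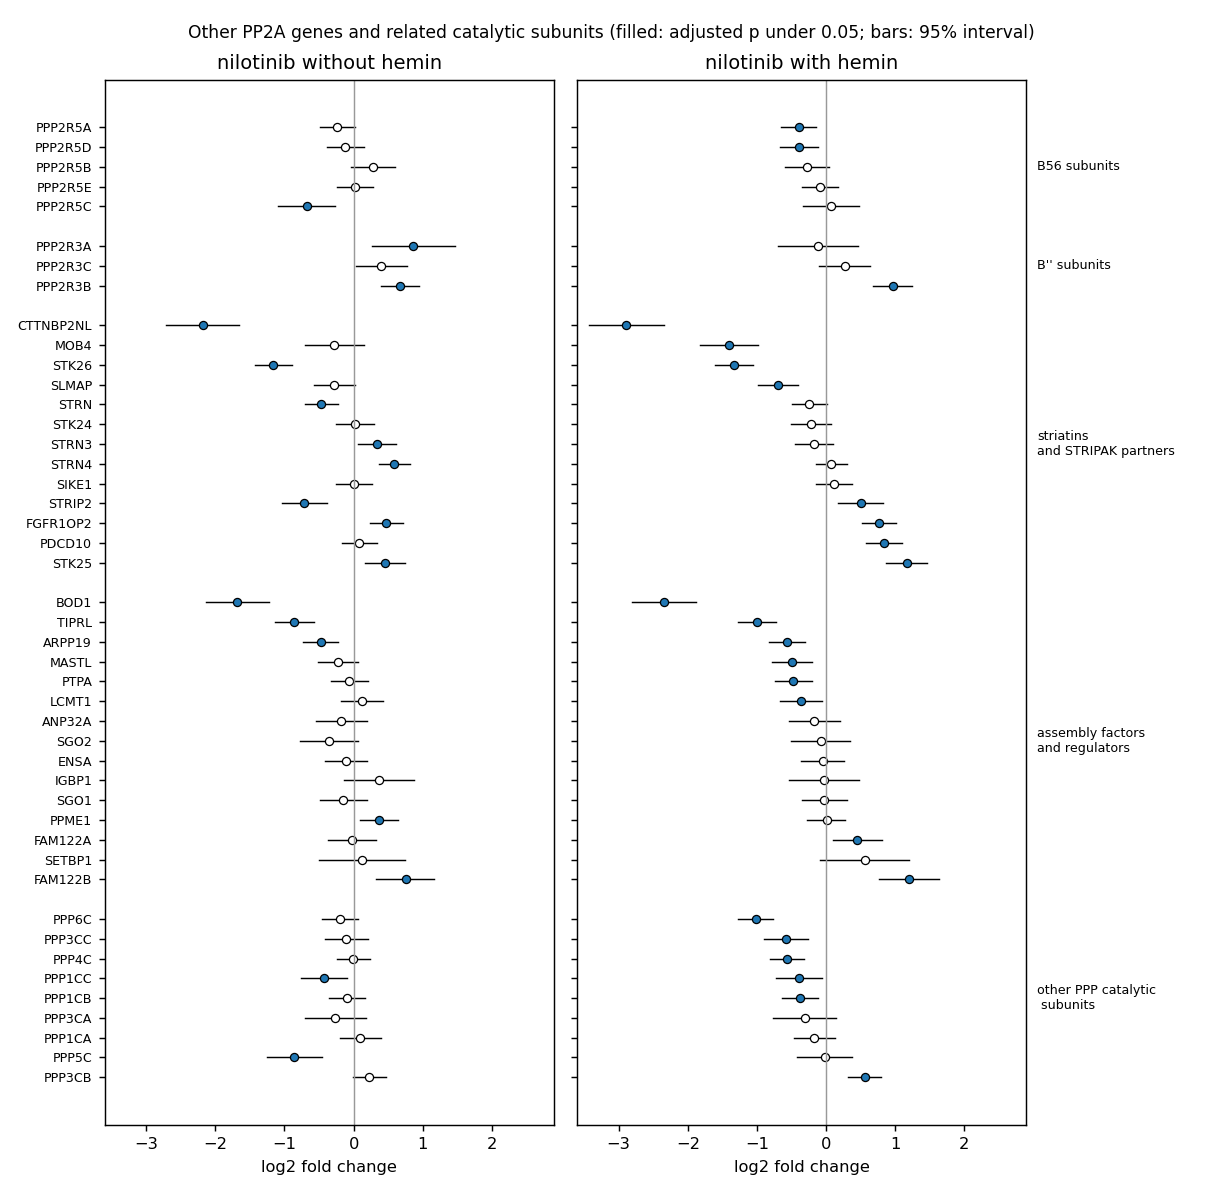
Log2 fold change with nilotinib of 36 other PP2A genes and of 9 related catalytic subunits, in mock cells (left) and hemin cells (right), with 95% intervals from edgeR and filled points at an adjusted p under 0.05. CTTNBP2NL and BOD1 lie farthest to the left in both panels, at -2.19 and -1.69 without hemin and -2.89 and -2.34 with it.

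The rise of the PP2A catalytic subunits with hemin was set beside the 9 other catalytic subunits of the PPP phosphatase family. In vehicle-treated cells hemin raised 4 and lowered 2 of the 9, and in hemin cells nilotinib raised 1 and lowered 5, so that 6 of the 9 were called in each, beside 53.6% and 64.2% of all genes. PPP6C, the closest relative with PPP4C, stood at 73.4 ± 4.37 CPM in mock DMSO, 63.9 ± 6.12 in mock nilotinib, 134 ± 12.7 in hemin DMSO and 66.2 ± 4.87 in hemin nilotinib. Its log2 fold change was 0.87 for hemin without nilotinib (edgeR adjusted p = 2.16e-05) and -1.02 for nilotinib with hemin (edgeR adjusted p = 2.43e-06). PPP3CC was lower with nilotinib in hemin cells, at -0.58 (edgeR adjusted p = 0.00303) and PPP3CB, another calcineurin catalytic subunit, was higher by 0.56 (edgeR adjusted p = 0.000439). PPP5C was lower with nilotinib in mock cells, at 80.6 ± 1.19 and 44.4 ± 8.98 CPM (log2 fold change -0.86, edgeR adjusted p = 0.00165). In hemin cells it stood at 54.4 ± 6.37 CPM with vehicle and 53.8 ± 17.05 with nilotinib.

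The genes around PPP2R2C were examined to see whether its rise extended along the chromosome. Of 27 genes within 500 kb, 16 could be tested. Nilotinib raised 2 and lowered 6 of them in mock cells and raised 6 and lowered 6 in hemin cells, so that 8 and 12 of the 16 were called beside 42.5% and 64.2% of all genes. The nearest tested gene, MAN2B2, 11575 bp away, stood at 59.7 ± 5.23 CPM in mock DMSO, 74.5 ± 5.29 in mock nilotinib, 41.1 ± 5.38 in hemin DMSO and 79.4 ± 10.1 in hemin nilotinib. Nilotinib raised it in hemin cells (log2 fold change 0.95, edgeR adjusted p = 1.67e-05), and the value in mock cells was 0.32 (edgeR adjusted p = 0.0684). WFS1, 17313 bp away on the other side, was near the floor, at 0.139 CPM in hemin DMSO and 0.494 in hemin nilotinib (log2 fold change 1.82, edgeR adjusted p = 0.0139). Its call was lost without hemin DMSO replicate 2 (1.507) or 3 (1.497) or hemin nilotinib replicate 1 (1.303).

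S100P, 129469 bp away, was lower with nilotinib in mock and in hemin cells. It stood at 25.2 CPM in mock DMSO and 0.498 in mock nilotinib, and at 46.0 CPM in hemin DMSO and 1.25 in hemin nilotinib (log2 fold changes -5.63 and -5.16, edgeR adjusted p = 5.86e-08 and 2.69e-08). The largest upward log2 fold change with nilotinib among the 16 tested neighbours was that of CRMP1 in hemin cells, at 2.25 (edgeR adjusted p = 3.24e-05). CRMP1 stood at 2.186 CPM in mock DMSO, 2.705 in mock nilotinib, 0.468 in hemin DMSO and 2.275 in hemin nilotinib. Its log2 fold change for hemin without nilotinib was -2.19, so the value of 2.25 is set against a low level in hemin DMSO.

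**Figure D5:**
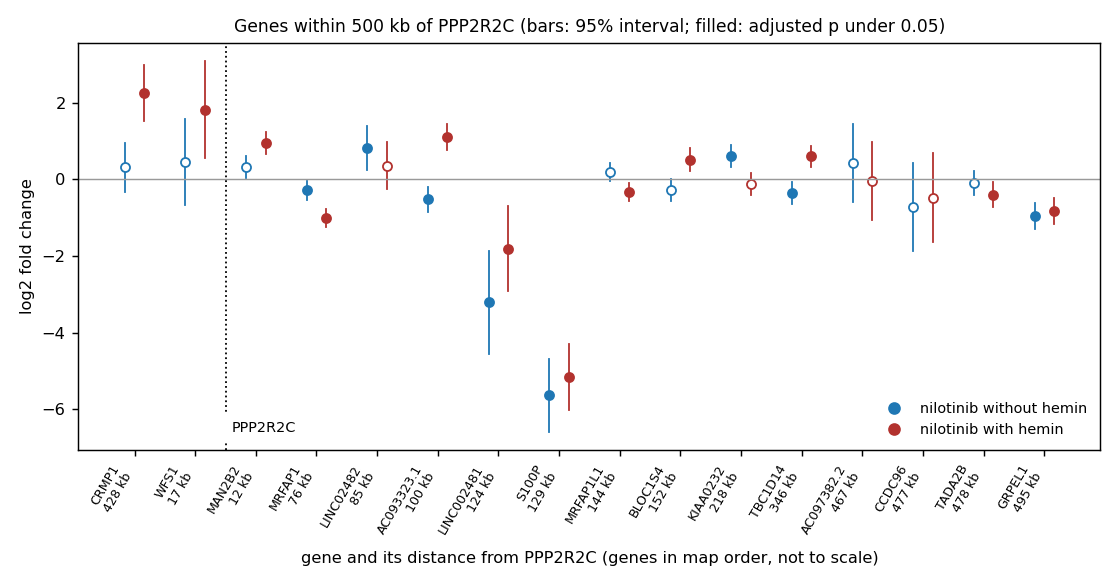
Log2 fold change with nilotinib of the 16 tested genes within 500 kb of PPP2R2C, in map order, without hemin (blue) and with hemin (red), with 95% intervals from edgeR and filled points at an adjusted p under 0.05. Values run from -5.63 for S100P to 2.25 for CRMP1, with higher and lower genes interspersed.

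The pattern of PPP2R2C over the 12 libraries was compared with that of 14875 genes of at least 1 CPM on average. Log2 CPM correlated most closely for SELENBP1 (Pearson r = 0.9913), LTBP1 (0.9907), PPT2 (0.9892), RBP5 (0.9892) and RHCE (0.9891), with Spearman's rho of 0.7203 to 0.8881. The 12 points fall into a DMSO and a nilotinib cluster and share their libraries, so these coefficients describe mostly that step. The 5 genes differed from PPP2R2C in their base level. RHCE, which encodes Rh blood group antigens of red cells, stood at 36.3 CPM in mock DMSO, 339 in mock nilotinib, 32.1 in hemin DMSO and 370 in hemin nilotinib. SELENBP1, a selenium-binding protein abundant in erythroid cells, stood at 47.5, 245, 45.1 and 261 CPM in the same order. LTBP1 stood at 75.0, 291, 76.1 and 266 CPM. PPT2 and RBP5 had lower levels, at 30.8 and 8.72 CPM in mock DMSO and 161 and 76.0 in hemin nilotinib. All 5 were thus expressed without nilotinib, whereas PPP2R2C was at the level of a few reads.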

How the data were processed

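K562 RNA was sequenced by a service as 150-base paired-end reads. For each gene and library the authors deposited raw read counts, which were not normalized and which entered the main test. They also deposited FPKM, in which counts per kilobase are divided by median-of-ratios size factors. FPKM served to compare levels between genes and in alternatives. A table of mean FPKM per group was not used. The submitters' processing notes name GRCh38.p12 and DESeq2, and the aligner and counter are not given in the sources used here. All 58735 gene identifiers are in GENCODE 29, and 58724 have the same start and end.

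Counts were fitted in edgeR 4.0.16 (R 4.3.3) with TMM factors, filterByExpr (20821 genes) and the quasi-likelihood test, with 1 mean for each group over all 12 libraries, and Benjamini-Hochberg adjustment over all genes tested. Total counts were 33457078 to 50506990. Errors after a log2 fold change are standard errors. PPP2R2C was given as the ratio of its summed counts with an exact interval and no test. Where a replicate was left out and a group kept 2, the spread was pooled over all groups. Alternatives were DESeq2 1.42.0, RLE factors, all genes with at least 1 count, at least 10 counts in every library, the 6 libraries alone, a replicate block, and limma 3.58.1 on log2(FPKM + 1) and log2(FPKM + 0.1). The fits were tested on simulated counts.

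The members and lists were chosen with earlier results of these data known. Genes outside the member list were named by a rule, up to 3 per direction and list with the largest change among those past the threshold with nilotinib, every tested gene within 500 kb of PPP2R2C (of which some are given only as counts), and the 5 genes with the highest correlation. Of the genes in these lists, 2 are not reported here and were left out of the list counts and sums. Same-numbered libraries deviated together from their group means in every pair (correlation above 0.1) only for mock nilotinib and hemin nilotinib (0.217, 0.151 and 0.201). The labels' numbers were read as pairs only there. The replicate block was nonetheless fitted over all 12 libraries with terms shared by the 4 groups, so it also blocked the DMSO groups.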

Additional observations from a re-analysis of the deposited data

Results flagged for a closer look

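For 3 members and 7 of the 36 other PP2A genes nilotinib acted differently in hemin cells and in mock cells by a test of the difference itself (edgeR's quasi-likelihood test, Benjamini-Hochberg adjusted). As log2 differences, the effect in hemin cells minus that in mock cells was -1.14 for PPP2CA, -0.91 for PPP2CB and 0.69 for CIP2A. It was 0.75 for PPP2R5C (edgeR adjusted p = 0.0476), -1.13 for MOB4, 0.75 for PDCD10, 0.71 for STK25, 1.21 for STRIP2, -0.50 for STRN3 (edgeR adjusted p = 0.0483) and -0.51 for STRN4 (edgeR adjusted p = 0.0215), of which the last 3 genes were named after their values were seen. When a replicate was left out, the value of PPP2R5C ranged from 0.583 (without hemin DMSO replicate 1) to 1.008 (without hemin DMSO replicate 2), and it lost its call without any 1 of mock DMSO replicates 1 to 3, mock nilotinib replicates 1 and 2, hemin DMSO replicates 1 and 3 and hemin nilotinib replicate 2, and also with RLE factors (adjusted p = 0.0684), DESeq2 (0.0581) and limma at a pseudocount of 1 (0.0617) or 0.1 (0.0581). STRN3 and STRN4 lost their calls with all genes of at least 1 count and without any 1 of the mock DMSO and mock nilotinib replicates or hemin nilotinib replicate 2, and STRN3 also without hemin DMSO replicate 2 or 3 or hemin nilotinib replicate 1 or 3, with values of -0.528 to -0.377 for STRN3 and -0.498 to -0.419 for STRN4. The value of STRIP2 kept its call under every alternative run. CIP2A lost its call without mock DMSO replicate 1 (0.676), mock nilotinib replicate 2 (0.711) or 3 (0.647) or hemin DMSO replicate 3 (0.662), and with limma on the FPKM (0.54 and 0.617). This test called 30.1% of all genes.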

How the results depend on the processing

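The counts of members called stayed within 1.5 times of the reported value under every alternative run, and so did the counts of other PP2A genes for nilotinib in mock cells, for nilotinib in hemin cells and for hemin in vehicle-treated cells. For hemin in nilotinib-treated cells the count of other PP2A genes, 0 as reported, was 1 with RLE factors, 1 with DESeq2, 1 with all genes of at least 1 count and 2 with the replicate block, and leaving out a replicate gave 0 to 3, with 3 without hemin nilotinib replicate 1 and 1 without hemin nilotinib replicate 3. For the difference between the nilotinib effects the count, 7 as reported, ranged from 4 to 9 when a replicate was left out and was 4 without any 1 of the mock DMSO replicates, mock nilotinib replicate 1 or 2, or hemin nilotinib replicate 2, where fewer libraries were fitted. The replicate block changed no other count of members or of other PP2A genes by over 1.5 times. It gave the difference between the nilotinib effects for PPP2R1B an adjusted p of 0.0431 by edgeR.

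Changes of sign concerned values that did not pass the test. For SET the difference between the nilotinib effects was -0.021 with RLE factors, -0.021 with DESeq2, -0.035 and -0.037 with limma, and -0.143 to 0.238 when a replicate was left out. Leaving out replicates gave PPP2R1A a range of -0.103 to 0.078 for nilotinib in mock cells, -0.251 to 0.04 for nilotinib in hemin cells and -0.248 to 0.043 for the difference between them, and gave PPP2R2D a range of -0.012 to 0.329 for that difference and -0.028 to 0.313 for hemin in vehicle-treated cells. The log2 ratio of PPP2R2C in hemin cells, 9.87 as reported, was 10.352 without hemin DMSO replicate 2 and 9.364 without hemin DMSO replicate 3, where it rested on 4 and 7 reads in hemin DMSO. The cause of the other changes was not tested. Of 155 values of single genes, 105 kept their direction and their side of the threshold under every alternative run. Depth limits what can be said of PPP2R2B and of PPP2R2C without nilotinib.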
